A study of Mus musculus with 21 samples.

Results

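Interferon-stimulated genes are genes whose transcription rises when a cell senses interferon, and 39 of them were followed here in murine fibroblasts with and without Prrx1, a homeobox transcription factor of mesenchymal cells. The members were taken by symbol from a list of 39 names, and all 39 were found among the 24447 genes listed in each of the 3 count tables, of which there is 1 per fibroblast type. RNA sequencing of total RNA was available for 21 cultures in 7 groups of 3. The groups were WT, mutant and sgPrrx1 mouse embryonic fibroblasts (MEF, strain C57BL/6), WT and sgPrrx1 wound-healing fibroblasts (C57BL/6) and WT and sgPrrx1 fibroblasts from MMTV-PyMT breast tumours (cancer-associated fibroblasts, CAF, strain FVB/NJ).

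The mutant MEF, whose genotype label is KI_PRRX1, came from embryos of Prrx1 mutant mice (129S-Prrx1tm1Jfm/Mmmh), and MEF were taken from embryos between day 10 and day 13. The line was made in 129S and, per the study's methods, had been crossed back to C57BL/6, the strain given for all MEF, and it carries lacZ in the Prrx1 gene. In the sgPrrx1 groups, Prrx1 was targeted with CRISPR/Cas9 and a guide RNA, and cells with a non-targeting guide (SgNS) served as WT. Whether the WT MEF carried that guide is not given in the sources used here. Wound-healing fibroblasts were isolated from dorsal wounds of mice on day 10. All 7 groups, WT included, had been immortalised with HPV oncogenes and were grown in DMEM with 10% FBS, and no group received interferon or any other stimulus according to the labels. The study's methods describe lentiviral vectors for delivering the guide, and the part of such a vector in the changes below was not tested. The sources do not state whether the guide-treated cells were clones or pools.

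Between 69588655 and 134790440 reads per culture were assigned to genes, and the CAF cultures were the deepest, with at least 105097945. Levels are given as CPM, a gene's count relative to the total of its culture, scaled over all 21 cultures, and changes as log2 fold changes ± SE from edgeR, called at a Benjamini-Hochberg adjusted p under 0.05 over all genes tested. No source states that the 3 cultures of a group came from different animals or isolations, so p-values measure only the spread between these cultures. That spread was above counting noise in each group. The mean chi-square per gene between 2 cultures of 1 group ran from 13.6 to 210.5, against a mean of 1 for counting noise alone. The median, which is below 1 for counting noise alone, was at most 2.15 in wound fibroblasts and CAF but up to 20.4 in MEF. Changes of a few percent passed the test in wound fibroblasts and CAF.

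Type I interferons act through the receptor chains IFNAR1 and IFNAR2, whose kinases JAK1 and TYK2 phosphorylate STAT2. STAT2 joins IRF9 in the complex ISGF3, which binds the interferon-stimulated response element (ISRE) in promoters, while interferon gamma acts mainly through gamma-activated sites (GAS). The induced genes encode further regulators (IRF1, IRF7), sensors of viral RNA and DNA (DDX58, IFIH1, ZBP1), antiviral effectors (the IFIT, MX and OAS families) and brakes on the response (USP18). Many fibroblasts keep a basal level of these transcripts without added interferon.

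The targeted gene was examined first. Prrx1 RNA was 192, 166 and 184 CPM in the 3 WT MEF cultures and 26.1, 20.7 and 19.9 CPM in the mutant MEF, a fall of 8.25-fold (adjusted p = 6.83e-06, edgeR). In sgPrrx1 MEF it was 126, 94.9 and 140.5 CPM, which is between 52.5% and 77.7% of the WT mean and the smallest loss of transcript in the series. The sgPrrx1 wound fibroblasts held 65.3, 64.2 and 65.1 CPM against 146, 143 and 152 CPM in WT, and the sgPrrx1 CAF 308, 309 and 301 CPM against 627, 632 and 636 CPM. The WT and Prrx1-loss cultures did not overlap in any type. Editing with a guide RNA can change the reading frame without removing the transcript, so these values check the labels and do not measure the remaining protein.

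Most markers of other cells were low beside fibroblast markers. The 10 fibroblast markers summed to between 3239 and 32314 CPM per culture. Of 7 lymphocyte markers, none reached 1 CPM on average in any group, and CD3E, CD3G, CD2 and MS4A1 had 0 counts throughout. The 11 leukocyte and macrophage markers in the tables summed to between 14.5 and 28.1 CPM, with CD14 the most abundant in each group, while ADGRE1 and TYROBP had 0 counts in all groups. CD14 was 6.69 ± 0.407 CPM in WT CAF and 26.1 ± 0.542 CPM in sgPrrx1 CAF, and CSF1R went the other way, from 5.60 ± 0.423 to 0.191 ± 0.0752 CPM (SD, n = 3). CD14 was also called higher in mutant MEF (0.50 ± 0.10) and sgPrrx1 MEF (0.41 ± 0.10), but not in wound fibroblasts. CSF1R was higher in sgPrrx1 MEF (0.80 ± 0.17) and sgPrrx1 wound fibroblasts (0.94 ± 0.18) and not called in mutant MEF. LYZ2 was higher in sgPrrx1 wound fibroblasts, from at most 35 counts. SIGLECH, which marks plasmacytoid dendritic cells, the main interferon producers of blood, was at 0 counts in all 21 cultures, and BST2, another marker of those cells, is itself one of the 39 genes. TCF4, the remaining marker listed for them, had group means from 103 CPM in sgPrrx1 CAF to 208 CPM in sgPrrx1 wound fibroblasts. It was called higher in sgPrrx1 wound fibroblasts (0.51 ± 0.02), lower in sgPrrx1 MEF (-0.31 ± 0.10) and neither in mutant MEF. Epithelial markers summed to at most 13.7 CPM. The endothelial sum reached 293 CPM in wound fibroblasts and was almost wholly KDR, at 290.3 ± 3.12 CPM in WT and 142 ± 2.77 CPM in sgPrrx1 wound fibroblasts (SD, n = 3), with PECAM1 at 0 counts in both groups. In mutant MEF, endothelial VWF (-5.31 ± 0.45), CDH5 (-4.34 ± 0.66) and KDR (-1.31 ± 0.16) were called lower. Epithelial KRT14, at 5.88 CPM in WT MEF and 0 counts in the mutant, and CDH1 were lower there, while KRT8 and KRT18 were higher. In sgPrrx1 MEF, KDR (-4.02 ± 0.38), VWF (-2.25 ± 0.28) and KRT14 (-0.53 ± 0.16) were lower, and CDH5 and CDH1 were not called. The summed fibroblast markers, carried by collagens and VIM, were lower with Prrx1 loss. The sum was at most 6848 CPM in mutant MEF against at least 12205 in WT MEF, at most 11274 in sgPrrx1 MEF, at most 3255 against at least 8232 in wound fibroblasts, and at most 15965 against at least 31716 in CAF, with LUM and FAP at 0 counts in mutant MEF, LUM in sgPrrx1 wound fibroblasts and FAP in sgPrrx1 CAF. Their WT counts were also low, at 12, 0 and 0 for LUM and 0, 0 and 11 for FAP in WT MEF. Neither was tested in mutant MEF. LUM had 12, 10 and 19 counts in WT wound fibroblasts, where the fall was called, and FAP had 6, 0 and 9 in WT CAF. Single markers went the other way, with DCN at 32.4 ± 0.776 CPM in WT CAF and 588 ± 8.70 CPM in sgPrrx1 CAF, PDGFRA at 939 ± 16.8 and 1835 ± 6.20 CPM in the same groups, and VIM at 5075 ± 285 CPM in WT MEF and 6504 ± 771 CPM in sgPrrx1 MEF (SD, n = 3), all 3 called higher. Elsewhere, single markers fell by more than the sum. Mean DCN was 48.8 CPM in WT MEF, 0.142 CPM in mutant MEF and 9.56 CPM in sgPrrx1 MEF. Mean PDGFRA was 142, 19.2 and 16.6 CPM in these MEF groups, and 59.0 and 21.2 CPM in WT and sgPrrx1 wound fibroblasts. Mean THY1 went from 57.3 to 0.641 CPM in CAF and from 49.8 to 2.88 CPM in wound fibroblasts. The part of these shifts in the changes below was not tested. In bulk cultures, fewer cells that carry a transcript and less transcript per cell cannot be told apart.

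Before Prrx1 loss, the 3 WT fibroblast types differed widely in these genes. WT CAF had the highest mean level for 36 of the 39 members, and the order MEF, then wound fibroblasts, then CAF held for 34. In WT CAF against WT MEF, 36 members were called higher and 3 lower, with a median log2 fold change of 3.29 (mean 3.32), where 40.6% of all genes tested were called higher and 38.6% lower and the median of all genes was 0.03. In WT CAF against WT wound fibroblasts, 35 were higher and 2 lower (median 2.40), beside 39.4% and 41.1% of all genes. The step between WT wound fibroblasts and WT MEF was smaller, with 33 higher, 2 lower and a median of 0.93, beside 40.9% and 39.4% of all genes. With at least a 2-fold change asked for as well, 35 members were higher and 1 lower in WT CAF against WT MEF (17.9% and 16.2% of all genes), 31 and 1 in WT CAF against WT wound fibroblasts (17.3% and 20.1%), and 16 and 1 in WT wound fibroblasts against WT MEF (21.7% and 17.2%). Fibroblast type and count table cannot be told apart in these 3 contrasts, nor can strain in the 2 that involve CAF, whereas MEF and wound fibroblasts are both C57BL/6.

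**Figure D1:**
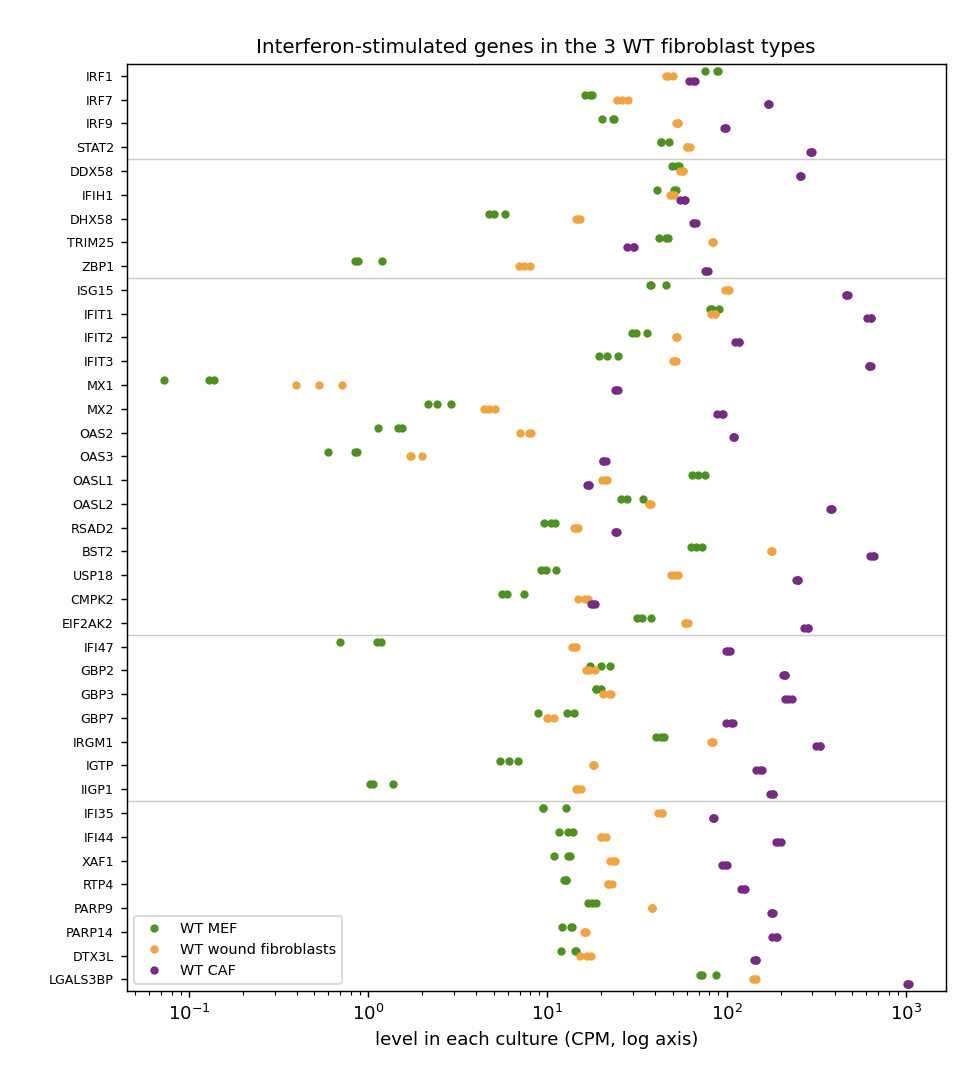
Level of each of the 39 genes in the 3 cultures of WT MEF (green), WT wound fibroblasts (orange) and WT CAF (purple), in CPM on a log axis, with genes in 5 blocks by role (transcription factors, sensors, effectors, GTPases, others). The purple points lie to the right of the other 2 colours for 36 genes, and for IRF1, OASL1 and TRIM25 they do not.

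The widest ranges were those of MX1 and of 2 GTPases of the interferon-gamma class, in CAF against MEF. MX1, of the family of antiviral MX GTPases, is annotated as a transcribed pseudogene in GRCm38.p6, as is MX2, so their counts are not those of an intact gene in that annotation. MX1 was 0.0725, 0.13 and 0.138 CPM in WT MEF, 0.394, 0.531 and 0.718 CPM in WT wound fibroblasts and 23.8, 24.7 and 24.2 CPM in WT CAF. IIGP1, an immunity-related GTPase, was 1.38, 1.02 and 1.07 CPM in WT MEF, 15.3, 14.4 and 14.8 CPM in WT wound fibroblasts and 182, 174 and 181 CPM in WT CAF. IFI47, of the same family, was 0.696, 1.12 and 1.17 CPM, 14.5, 13.7 and 14.3 CPM and 99.4, 102 and 104 CPM in the same order. None of the 3 genes had overlapping groups, and the differences between CAF and MEF were 7.65 ± 0.22, 7.23 ± 0.10 and 6.61 ± 0.14 on the log2 scale.

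ISG15, a ubiquitin-like modifier, rose through the series from 40.2 ± 4.79 CPM in WT MEF to 101 ± 2.41 CPM in WT wound fibroblasts and 467 ± 8.71 CPM in WT CAF (SD, n = 3). USP18, the protease that removes ISG15 and damps the receptor, followed the same order with 10.1 ± 0.956 CPM, 51.3 ± 2.37 CPM and 247 ± 3.34 CPM. Not every member joined it. OASL1 was highest in WT MEF at 69.9 ± 5.95 CPM against 20.9 ± 0.756 CPM and 16.9 ± 0.276 CPM, so that it was called 4.28-fold lower in CAF than in MEF. IRF1 too was highest in WT MEF, and TRIM25, a ubiquitin ligase that assists DDX58, was highest in wound fibroblasts (83.3 ± 0.597 CPM) and lowest in CAF (29.4 ± 1.31 CPM). GBP2 and GBP7 were lowest in wound fibroblasts, but the difference from MEF did not pass the test (adjusted p = 0.109 and 0.252, edgeR). IFIT1, 84.5 ± 4.90 CPM in MEF and 84.6 ± 2.32 CPM in wound fibroblasts, and IFIH1 did not pass the test between those 2 types either, and CMPK2 and IFIH1 did not between CAF and wound fibroblasts.

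Loss of Prrx1 was followed by lower levels of most members in MEF and wound fibroblasts and by a mixed picture in CAF. In mutant MEF against WT MEF, 23 of 39 members were called lower, 3 higher and 13 neither, beside 30.5% of all 13616 genes tested called lower and 29.4% higher. The members' median log2 fold change was -1.08 (mean -1.29), against 0.01 over all genes. In sgPrrx1 MEF against WT MEF, 34 of the 38 members tested were lower, none was higher and 4 were not called, beside 22.8% of all genes lower and 20.3% higher (median -1.60, mean -1.76 with the 2 genes at 0 counts taken at their bound, below). MX1 was not tested there because its counts were too low. In wound fibroblasts, 31 of 39 were lower, 3 higher and 5 not called (median -0.66, mean -0.86 with 1 gene at its bound), beside 39.3% and 38.3% of all genes. In CAF, 21 were higher, 17 lower and 1 not called (median 0.09, mean 0.19), and these shares of 53.8% and 43.6% stood beside 41.2% of all genes called higher and 41.9% lower. The 2 MEF comparisons share the WT MEF cultures. Under a stricter rule that also asks for at least a 2-fold change, 20 members were lower and 0 higher in mutant MEF, beside 14.5% and 9.64% of all genes. The same rule gave 25 and 0 in sgPrrx1 MEF (8.97% and 1.58% of all genes), 13 and 2 in wound fibroblasts (7.06% and 8.57%), and 4 and 7 in CAF (12.8% and 11.5%).

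**Figure D2:**
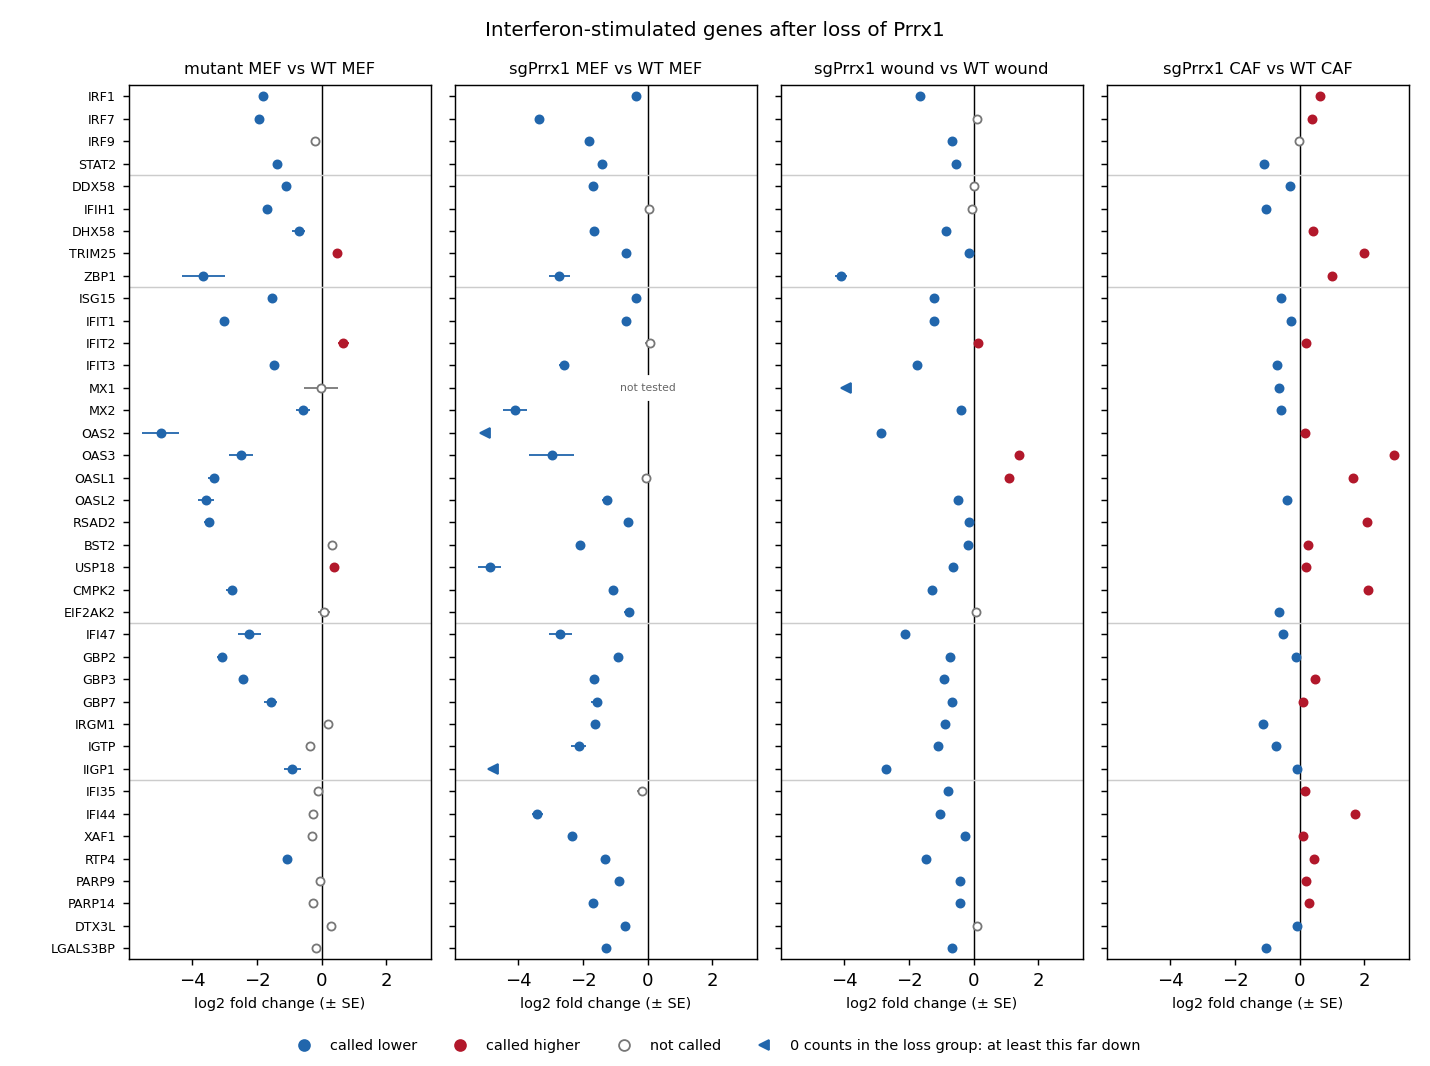
Log2 fold change (± SE) of the 39 genes in each comparison of a Prrx1-loss group with WT of the same type, blue where called lower, red where called higher and open where not called, with triangles marking the least fall that 3 counts per library allow where a loss group had 0 counts. Most points lie left of 0 in the 2 MEF panels and in wound fibroblasts, while 21 lie to the right among the called points in CAF.

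All 4 transcription factors among the members were lower in sgPrrx1 MEF, 3 in mutant MEF, 3 in wound fibroblasts and 1 in CAF, where 2 were higher, beside 22.8%, 30.5%, 39.3% and 41.9% of all genes lower and, in CAF, 41.2% higher. STAT2, a subunit of ISGF3, was lower in each comparison. It was 42.9, 43.0 and 47.8 CPM in WT MEF, 18.9, 17.7 and 15.7 CPM in mutant MEF and 16.4, 16.7 and 17.5 CPM in sgPrrx1 MEF. In wound fibroblasts it went from 59.7, 60.4 and 62.2 CPM to 40.7, 43.1 and 41.2 CPM, and in CAF from 293, 298 and 296 CPM to 137, 143 and 137 CPM. No loss culture reached the level of any WT culture of its type, and the changes were -1.37 ± 0.11, -1.42 ± 0.08, -0.55 ± 0.03 and -1.11 ± 0.02 on the log2 scale in that order.

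IRF9, the DNA-binding partner in ISGF3, was 23.5, 23.3 and 20.2 CPM in WT MEF and 6.92, 5.95 and 6.28 CPM in sgPrrx1 MEF (-1.82 ± 0.10). Mutant MEF held 17.4, 19.7 and 22.2 CPM, with 1 culture inside the WT range and no call. In wound fibroblasts IRF9 fell from 53.4, 53.4 and 52.4 CPM to 34.9, 33.0 and 33.0 CPM, and in CAF it was 96.9, 99.2 and 97.7 CPM in WT and 96.8, 99.4 and 96.7 CPM in sgPrrx1 cultures, which overlap. IRF7, which amplifies the interferon response, was 16.3, 17.2 and 17.7 CPM in WT MEF, 3.69, 4.78 and 5.11 CPM in mutant MEF and 1.7, 1.71 and 1.60 CPM in sgPrrx1 MEF. The 3 MEF groups were thus separate, at changes of -1.94 ± 0.13 and -3.36 ± 0.09 against WT. In wound fibroblasts the IRF7 groups overlapped, at 28.0, 26.0 and 24.4 CPM and 26.9, 27.9 and 29.2 CPM. In CAF it rose from 169.7, 171 and 171 CPM to 222, 227 and 223 CPM, a fold of 1.30.

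IRF1, induced mainly by interferon gamma, was 88.0, 88.9 and 76.0 CPM in WT MEF and 19.9, 24.7 and 28.9 CPM in mutant MEF (-1.81 ± 0.14). The sgPrrx1 MEF lay just below WT at 74.9, 68.1 and 58.0 CPM (-0.34 ± 0.11, adjusted p = 0.0433, edgeR), a call that was lost without replicate 1 or 2 of WT MEF or replicate 2 or 3 of sgPrrx1 MEF. Wound fibroblasts showed the lowest level, with 46.8, 50.3 and 46.1 CPM in WT and 14.7, 15.6 and 15.2 CPM in sgPrrx1 cultures. In CAF, IRF1 rose from 66.2, 61.8 and 64.6 CPM to 99.3, 100.0 and 102 CPM, a fold of 1.55.

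**Figure D3:**
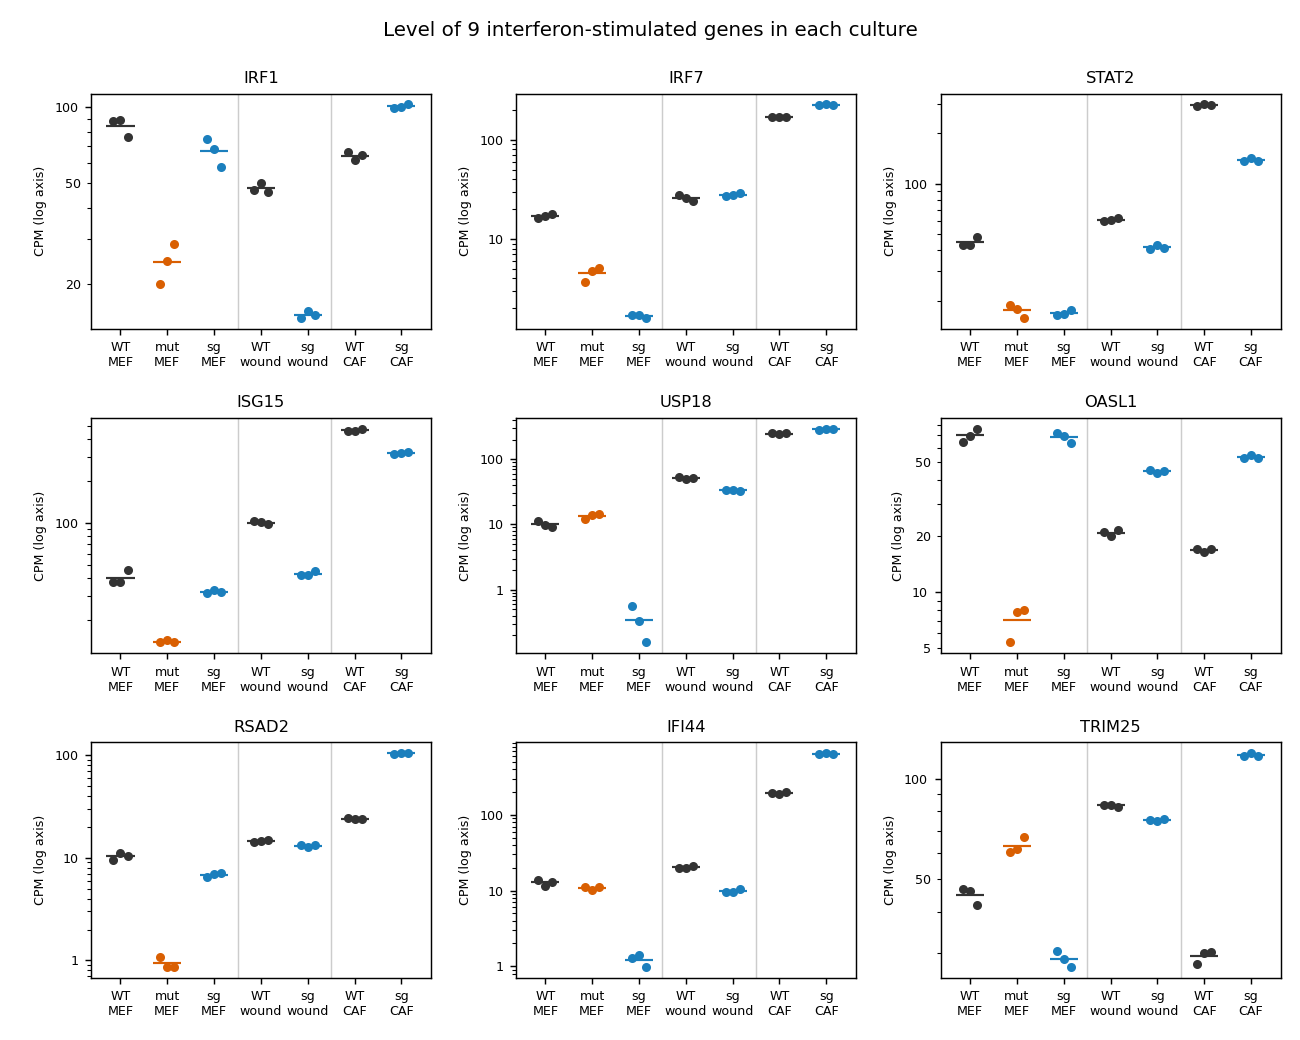
Level of 9 of the genes in each of the 21 cultures, in CPM on a log axis, with a point per culture and a line at the group mean (black for WT, orange for mutant, blue for sgPrrx1). The mutant MEF sit lowest of the MEF groups for IRF1, ISG15, OASL1 and RSAD2, and the sgPrrx1 MEF for IRF7, USP18, IFI44 and TRIM25. For STAT2 the mutant and sgPrrx1 MEF overlap. The sgPrrx1 CAF lie above WT CAF for all of these genes but STAT2 and ISG15.

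Of the 6 receptor chains of the pathway, 1 of 6 tested were lower and 2 higher in mutant MEF, 0 of 5 lower and 2 higher in sgPrrx1 MEF, 1 of 6 lower and 3 higher in sgPrrx1 wound fibroblasts and 3 of 5 lower and 2 higher in sgPrrx1 CAF. The shares of all genes lower and higher were 30.5% and 29.4%, 22.8% and 20.3%, 39.3% and 38.3%, and 41.9% and 41.2% in the same order. The largest change of the type I receptor chain IFNAR1 in the 4 comparisons was -0.19, in CAF, and IFNAR2 was called only in CAF, where it rose from 63.8 ± 0.781 CPM to 94.7 ± 2.11 CPM (SD, n = 3; 0.55 ± 0.03). Of the interferon gamma receptor, IFNGR1 was higher in both MEF comparisons (0.36 and 0.50) and lower in wound fibroblasts (-0.55) and CAF (-0.31). IFNLR1, a chain of the type III receptor, was 1.08, 1.66 and 1.58 CPM in mutant MEF and 0, 0.0864 and 0 CPM in WT MEF, and was at most 0.369 CPM in any culture of the other groups. The largest change of the kinase JAK1 was -0.35, in mutant MEF, while TYK2 fell in sgPrrx1 CAF (-0.92 ± 0.04) and sgPrrx1 MEF (-0.49 ± 0.08) and rose in wound fibroblasts (0.49 ± 0.04).

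Transcripts of the interferons themselves were low. Of 19 ligand genes, 1 passed the filter on low counts in each MEF comparison, 2 in wound fibroblasts and 3 in CAF. IFNB1, the first type I interferon made by fibroblasts, was 1.97, 1.72 and 1.89 CPM in WT CAF and 2.46, 2.32 and 2.73 CPM in sgPrrx1 CAF, a difference of 0.41 ± 0.11 that passed the test (adjusted p = 0.00849, edgeR). In MEF it was at 0 counts in 7 of 9 cultures and at most 0.0587 CPM, so it was not tested there. In wound fibroblasts it was 0.0876, 0.0494 and 0.0463 CPM in WT and 0.134, 0.15 and 0.146 CPM in sgPrrx1 cultures, from at most 14 counts, and was called higher (1.2 ± 0.41, adjusted p = 0.0269, edgeR), in a comparison in which 31 of the 39 members were lower. Among WT types, IFNB1 was called higher in CAF than in MEF (8.29 ± 0.45) and wound fibroblasts (4.81 ± 0.30). It was also called higher in wound fibroblasts than in MEF (3.48 ± 0.75). The contrasts with MEF rest on very few MEF counts. IFNZ, another type I interferon, was called lower in mutant MEF (-1.09 ± 0.35, adjusted p = 0.0307, edgeR) at 0.129, 0.224 and 0.147 CPM against 0.363, 0.302 and 0.391 CPM in WT. Of 11 sensors and adaptors outside the 39, 5 of 10 tested were lower and 2 higher in mutant MEF, 3 of 10 lower and 2 higher in sgPrrx1 MEF, 2 of 10 lower and 3 higher in sgPrrx1 wound fibroblasts and 6 of 10 lower and 4 higher in sgPrrx1 CAF, beside 30.5%, 22.8%, 39.3% and 41.9% of all genes lower and 29.4%, 20.3%, 38.3% and 41.2% higher. TMEM173 (STING), the adaptor for cytosolic DNA, fell from 39.5, 40.4 and 63.6 CPM in WT MEF to 8.80, 9.15 and 9.13 CPM in mutant MEF and was 46.4, 45.2 and 45.9 CPM in sgPrrx1 MEF. MB21D1 (cGAS), the DNA sensor that acts on it, rose in mutant MEF (1.30 ± 0.18), sgPrrx1 MEF (0.65 ± 0.11) and CAF (1.18 ± 0.04) and fell in wound fibroblasts (-0.55 ± 0.03). TLR7, a receptor for single-stranded RNA known from immune cells, was 0.607, 0.444 and 0.476 CPM in WT CAF and 85.3, 90.4 and 89.2 CPM in sgPrrx1 CAF (7.43 ± 0.08), and was at most 0.348 CPM in any MEF or wound culture.

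The 3 sgPrrx1 comparisons share no cultures, and 38 members were tested in all 3. Of these, 12 were called lower in each of the 3 types and none higher, beside 5.57% and 3.25% of the 12621 genes tested in all 3. The 12 were STAT2, ISG15, IFIT1, IFIT3, MX2, OASL2, IFI47, GBP2, IIGP1, IRGM1, IGTP and LGALS3BP, of which 5 are GTPases of the interferon-gamma class. The first 9 of them were also lower in mutant MEF, and their levels follow.

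ISG15 was 37.3, 37.7 and 45.8 CPM in WT MEF, 13.9, 14.3 and 13.8 CPM in mutant MEF and 31.2, 33.0 and 31.7 CPM in sgPrrx1 MEF. Wound fibroblasts went from 102, 101 and 97.8 CPM to 42.4, 42.1 and 45.1 CPM and CAF from 463, 461 and 477 CPM to 312, 321 and 324 CPM. No group overlapped its WT group, but the call in sgPrrx1 MEF (-0.34 ± 0.10) was lost when any 1 of the 3 sgPrrx1 cultures was left out. IFIT1, which binds viral RNA lacking a host cap, was 80.9, 82.5 and 90.1 CPM in WT MEF, 11.2, 10.3 and 10.2 CPM in mutant and 52.6, 51.7 and 57.8 CPM in sgPrrx1 MEF. It fell from 86.0, 85.8 and 81.9 CPM to 36.6, 36.9 and 36.3 CPM in wound fibroblasts and less in CAF, from 639, 606 and 637 CPM to 529, 538 and 527 CPM. The changes in IFIT1 spanned -3.02 ± 0.09 in mutant MEF to -0.26 ± 0.02 in CAF.

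IFIT3, which pairs with IFIT1, was lowest in sgPrrx1 MEF, at 3.37, 3.35 and 4.17 CPM against 8.27, 7.83 and 7.97 CPM in mutant and 19.4, 21.4 and 24.7 CPM in WT MEF. In wound fibroblasts it was 50.9, 51.9 and 50.3 CPM in WT and 14.9, 14.9 and 15.4 CPM after Prrx1 loss, and in CAF 642, 621 and 623 CPM and 392, 387 and 393 CPM. A near-identical neighbour, IFIT3B, shares sequence with IFIT3, so the split of reads between them is uncertain. IFIT3B was itself lower in all 4 comparisons (-1.51, -2.85, -1.03 and -0.75). OASL2, a 2'-5'-oligoadenylate synthetase-like protein, was 25.6, 27.8 and 34.0 CPM in WT MEF, 3.22, 2.36 and 1.82 CPM in mutant and 11.1, 11.6 and 13.9 CPM in sgPrrx1 MEF, the largest fall in the mutant comparison among members with a mean of at least 1 CPM (-3.58 ± 0.24). It was 36.8, 36.9 and 37.7 CPM and 26.3, 27.4 and 25.6 CPM in WT and sgPrrx1 wound fibroblasts and 379, 382 and 389 CPM and 296, 290.1 and 295 CPM in CAF.

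MX2, the second gene of the MX family, was 2.16, 2.40 and 2.90 CPM in WT MEF, 2.09, 1.48 and 1.47 CPM in mutant MEF and 0.192, 0.0591 and 0.181 CPM in sgPrrx1 MEF. The fall in sgPrrx1 MEF was 17.1-fold, while that in the mutant (-0.59 ± 0.22, adjusted p = 0.0496, edgeR) was lost without replicate 1, 2 or 3 of WT MEF or replicate 2 or 3 of mutant MEF. It went from 4.44, 5.13 and 4.73 CPM to 4.17, 3.41 and 3.32 CPM in wound fibroblasts and from 94.1, 88.8 and 95.2 CPM to 62.6, 63.8 and 63.0 CPM in CAF. MX1 had 0 counts in the 3 sgPrrx1 wound cultures, against 0.394, 0.531 and 0.718 CPM in WT, so that it was at least 15.5-fold lower against a floor of 3 counts per library. It also had 0 counts in sgPrrx1 MEF, and in CAF it fell from 23.8, 24.7 and 24.2 CPM to 15.2, 15.9 and 15.7 CPM.

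GBP2, a guanylate-binding protein that attacks membranes around pathogens, was 22.2, 19.9 and 17.4 CPM in WT MEF, 2.49, 2.31 and 2.27 CPM in mutant and 11.1, 10.4 and 10.2 CPM in sgPrrx1 MEF. In wound fibroblasts it went from 16.4, 18.5 and 17.1 CPM to 10.4, 10.4 and 10.4 CPM, and in CAF, where the change was -0.10 ± 0.02, from 212, 206 and 211 CPM to 199, 198 and 198 CPM. IFI47 was 0.696, 1.12 and 1.17 CPM in WT MEF against 0.142, 0.224 and 0.279 CPM in mutant and 0.163, 0.103 and 0.193 CPM in sgPrrx1 MEF. It fell from 14.5, 13.7 and 14.3 CPM to 3.35, 3.24 and 3.24 CPM in wound fibroblasts (4.34-fold) and from 99.4, 102 and 104 CPM to 69.1, 75.4 and 74.5 CPM in CAF. IIGP1 was 0.645, 0.744 and 0.470 CPM in mutant MEF and had 0 counts in the 3 sgPrrx1 MEF cultures, at least 27.2-fold below WT MEF against 3 counts per library. In wound fibroblasts IIGP1 went from 15.3, 14.4 and 14.8 CPM to 2.46, 2.14 and 2.22 CPM, and in CAF the groups overlapped, at 182, 174 and 181 CPM and 175, 173 and 171 CPM. The call of -0.07 ± 0.02 in CAF was lost without replicate 1 of WT CAF or replicate 2 or 3 of sgPrrx1 CAF. That of -0.91 ± 0.26 in mutant MEF was lost without replicate 1 of WT MEF or replicate 3 of mutant MEF.

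The class of GTPases induced by interferon gamma was lower as a whole in 2 comparisons, with 7 of 7 members called lower in sgPrrx1 MEF and 7 of 7 in sgPrrx1 wound fibroblasts, beside 22.8% and 39.3% of all genes. In mutant MEF 5 of 7 were lower (30.5% of all genes) and in CAF 5 were lower and 2 higher (41.9% and 41.2%). IRGM1, which directs GTPases to vacuoles, was the largest fall in CAF, from 330.4, 317 and 331 CPM to 147, 151 and 149.6 CPM (2.21-fold). It also fell from 44.9, 42.9 and 40.1 CPM in WT MEF to 14.7, 13.2 and 13.8 CPM in sgPrrx1 MEF and from 82.0, 82.8 and 84.0 CPM to 44.7, 46.1 and 45.6 CPM in wound fibroblasts, and was 51.5, 48.4 and 47.6 CPM in mutant MEF, not called. The 2 that rose in CAF were GBP3 (0.49 ± 0.03) and GBP7 (0.09 ± 0.03).

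In mutant MEF, OAS2 (1.46, 1.54 and 1.14 CPM in WT and 0.0645, 0.0590 and 0 CPM in mutant MEF) and ZBP1 (0.841, 1.2 and 0.874 CPM and 0.0774, 0.142 and 0 CPM) fell furthest, from levels near 1 CPM. RSAD2 (viperin), an enzyme that makes a chain terminator for viral RNA, was 9.53, 11.1 and 10.5 CPM in WT and 1.07, 0.873 and 0.866 CPM in mutant MEF, 11.2-fold lower. OASL1, which limits IRF7 translation, was 64.1, 69.5 and 76.0 CPM in WT and 5.35, 7.78 and 8.04 CPM in mutant MEF, 10.1-fold lower. CMPK2, a mitochondrial nucleotide kinase, fell from 7.40, 5.93 and 5.60 CPM to 0.993, 0.921 and 0.880 CPM. None of these 3 genes overlapped between the groups. The 3 members that rose in the mutant did so by less than 2-fold. IFIT2 went from 29.5, 31.3 and 35.9 CPM to 63.8, 49.3 and 42.0 CPM (0.66 ± 0.17). TRIM25 rose from 46.8, 46.1 and 41.7 CPM to 60.5, 61.4 and 66.9 CPM (0.46 ± 0.08). For USP18 the values were 11.1, 9.83 and 9.26 CPM in WT and 12.0, 14.0 and 14.2 CPM in mutant MEF, and its call (0.39 ± 0.11) was lost without replicate 2 or 3 of either group. Of the 8 members outside the other classes, only RTP4, a chaperone of receptors, was called in mutant MEF (-1.08 ± 0.10), and 7 of the 8 were lower in sgPrrx1 MEF, beside 30.5% and 22.8% of all genes lower.

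Among members with a mean of at least 1 CPM, the deepest falls in sgPrrx1 MEF were those of USP18, MX2 and IFI44. USP18 was 0.562, 0.325 and 0.155 CPM against 11.1, 9.83 and 9.26 CPM in WT, 29.6-fold lower. IFI44, an interferon-induced protein of the cytoplasm, was 1.30, 1.39 and 0.980 CPM against 13.9, 11.6 and 13.0 CPM, 10.6-fold lower, and 11.2, 10.1 and 11.2 CPM in mutant MEF. BST2 (tetherin), which holds budding virions at the membrane, was 17.0, 16.1 and 15.1 CPM in sgPrrx1, 63.3, 72.7 and 67.2 CPM in WT and 68.9, 89.2 and 103 CPM in mutant MEF. OAS2, which makes the activator of RNase L, had 0 counts in the 3 sgPrrx1 MEF cultures against 1.46, 1.54 and 1.14 CPM in WT, at least 32.5-fold lower against 3 counts per library. The 4 members not called were OASL1 (-0.04 ± 0.09), IFIH1 (0.04 ± 0.10), IFIT2 (0.06 ± 0.13) and IFI35 (-0.19 ± 0.14).

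Because both MEF comparisons rest on the same WT cultures, the 2 kinds of Prrx1-deficient MEF were compared directly. Of 35 members tested, 20 were lower and 10 higher in sgPrrx1 than in mutant MEF, beside 28.4% of all genes lower and 27.8% higher (median -0.65, mean -0.50 with 1 gene at its bound). The 10 higher members were IRF1, ISG15, IFIT1, OASL1, OASL2, RSAD2, IFIH1, GBP2, GBP3 and CMPK2. The largest of these differences were OASL1 (3.28 ± 0.17), RSAD2 (2.87 ± 0.13), IFIT1 (2.36 ± 0.08) and OASL2 (2.31 ± 0.22). Among the 20 lower members were USP18 (-5.28 ± 0.35), MX2 (-3.51 ± 0.39), IFI44 (-3.14 ± 0.15), BST2 (-2.43 ± 0.15) and XAF1 (-2.06 ± 0.10), and IIGP1 was at least 14.6-fold lower. STAT2 (-0.05 ± 0.09), GBP7 (-0.00 ± 0.12), IFI35, IFI47 and RTP4 were not called. Prrx1 RNA itself was 5.43-fold higher in sgPrrx1 than in mutant MEF, and the 2 groups also differ in the origin of the cells, so the kind of Prrx1 lesion and the source of the embryos cannot be told apart.

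**Figure D4:**
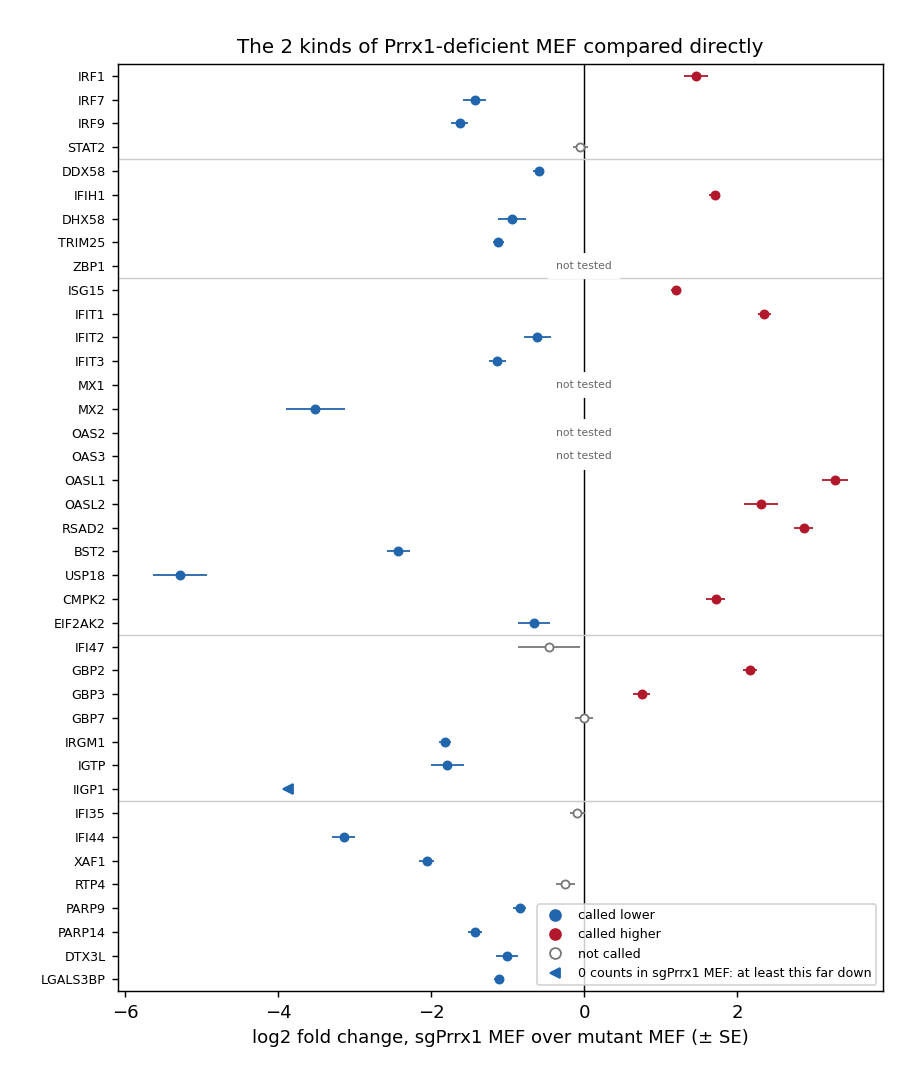
Log2 fold change (± SE) of the 39 genes in sgPrrx1 MEF over mutant MEF, blue where called lower in sgPrrx1 MEF, red where higher and open where not called, with a triangle at the least fall that 3 counts per library allow. The points spread to both sides of 0, with 10 red points led by OASL1 and 20 blue points led by USP18.

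Promoter letters were read for the same genes from RefSeq (build GRCm38.p6), in windows from 250 bases before to 50 bases after each start. Of the 39 members, 29 had a window. The core letters of the ISRE, GAAA followed by any 2 bases and another GAAA on either strand, were found in 15 of the 29 members, beside 3.99% of the 27025 genes with a window, and those of the GAS, TTCNNNGAA, which reads the same on both strands apart from its middle, in 7 of 29, beside 9.55% of genes. BST2, GBP7, IGTP and EIF2AK2 held both. By the direct MEF comparison, the ISRE letters were in 6 of the 10 higher members and in 6 of the 14 lower members with a window, and the GAS letters in 1 of 10 and 4 of 14. Stretches of 80 bases before the start that defines each window are shown for 7 members that hold the ISRE letters there, because these members fall on both sides of the direct MEF comparison. Each is written 5' to 3' on the strand of the gene with the ISRE letters in capitals, where TTTC on both sides of 2 bases is the match on the other strand, and overlapping matches run together.
The first 4 are of members that were higher in sgPrrx1 than in mutant MEF.
ISG15, chr4:156200837-156200916, minus strand: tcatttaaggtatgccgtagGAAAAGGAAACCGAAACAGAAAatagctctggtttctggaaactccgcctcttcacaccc
IFIT1, chr19:34640765-34640844, plus strand: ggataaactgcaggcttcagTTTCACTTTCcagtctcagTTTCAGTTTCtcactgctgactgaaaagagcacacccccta
RSAD2, chr12:26456513-26456592, minus strand: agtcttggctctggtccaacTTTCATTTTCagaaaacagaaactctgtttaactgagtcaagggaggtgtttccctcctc
GBP2, chr3:142620583-142620662, plus strand: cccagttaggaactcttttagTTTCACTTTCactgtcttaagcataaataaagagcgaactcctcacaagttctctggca
The next 3 are of members that were lower in sgPrrx1 than in mutant MEF.
IFIT3, chr19:34583353-34583432, plus strand: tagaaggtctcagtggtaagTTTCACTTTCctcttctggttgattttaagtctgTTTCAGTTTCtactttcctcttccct
BST2, chr8:71537543-71537622, minus strand: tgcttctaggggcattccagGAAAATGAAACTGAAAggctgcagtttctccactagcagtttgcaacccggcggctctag
IRGM1, chr11:48871421-48871500, minus strand: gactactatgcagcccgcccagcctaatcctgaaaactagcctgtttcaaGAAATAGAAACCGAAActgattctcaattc

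ISG15 has 3 overlapping matches in this stretch, the first starting 78 bases before the start of the gene, and BST2 and IRGM1 have 2 overlapping matches each. The start that defines the IFIT3 window is a RefSeq transcript start inside the annotated span of the gene (chr19:34583119-34588982), so that stretch also lies inside the span. IFIT1 and IFIT3 have 2 separate matches, and RSAD2 and GBP2 have 1. The stretches were chosen because they hold these letters, and a match is a description of the window, not a measured binding site.

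In wound fibroblasts the deepest falls among members with a mean of at least 1 CPM were those of ZBP1, OAS2 and IIGP1. ZBP1, a sensor of left-handed nucleic acid that triggers cell death, went from 7.42, 6.96 and 8.01 CPM to 0.313, 0.397 and 0.626 CPM (17.1-fold). OAS2 fell from 7.90, 7.01 and 8.06 CPM to 1.07, 1.21 and 0.865 CPM (7.25-fold), and IIGP1 fell 6.55-fold. The 3 genes that rose were OAS3, OASL1 and IFIT2. OAS3, the long synthetase that activates RNase L, went from 1.71, 1.73 and 1.99 CPM to 4.74, 5.04 and 4.75 CPM (2.67-fold). OASL1 went from 21.0, 20.1 and 21.6 CPM to 45.3, 43.9 and 45.2 CPM (2.14-fold). IFIT2 changed from 52.4, 52.4 and 53.0 CPM to 56.7, 57.3 and 58.3 CPM, 1.09-fold. The members not called were IRF7, DDX58, IFIH1, EIF2AK2 and DTX3L. RSAD2, at 14.2, 14.5 and 14.8 CPM and 13.2, 12.8 and 13.3 CPM, was called lower at -0.15 ± 0.04, and its groups did not overlap.

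In CAF, the type with the highest WT levels, the largest rises exceeded the largest falls. OAS3 went from 21.1, 20.4 and 20.5 CPM to 155, 159.5 and 159 CPM, a fold of 7.56. CMPK2 rose from 18.4, 17.9 and 17.4 CPM to 75.9, 79.3 and 78.2 CPM (4.28-fold). RSAD2, its neighbour, rose from 24.3, 23.7 and 24.1 CPM to 103, 104 and 104 CPM (4.26-fold). The groups were far apart for all 3. TRIM25 (3.96-fold), IFI44 (3.27-fold), OASL1 (3.14-fold) and ZBP1 (2.01-fold) complete the 7 members that rose at least 2-fold. IFI44 was 194, 188 and 200.2 CPM in WT and 631, 654 and 641 CPM in sgPrrx1 CAF. ZBP1 was 76.0, 76.6 and 78.5 CPM and 154, 158 and 159 CPM. The 4 members that fell at least 2-fold were IRGM1, STAT2, IFIH1 and LGALS3BP. IFIH1 (MDA5), a sensor of long viral RNA, went from 58.5, 55.2 and 57.5 CPM to 27.2, 28.9 and 27.4 CPM (2.08-fold), and LGALS3BP, a secreted glycoprotein, fell 2.04-fold. The other 27 called members changed by less than 2-fold, and IRF9 was not called.

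The change with sgPrrx1 differed between fibroblast types for 38 of the 39 members by the interaction of type and Prrx1 loss, beside 80.1% of all 14972 genes tested. The exception was IFIT2 (adjusted p = 0.317, edgeR). For 19 of the 38 members tested in all 3 types, calls in different types had opposite directions, beside 47.6% of all genes tested in all 3, so this share lies near that of all genes. All 19 were higher in CAF and lower in MEF, in wound fibroblasts or in both, and OAS3 alone was also higher in wound fibroblasts. IFI44 spanned -3.41 ± 0.16 in MEF, -1.05 ± 0.05 in wound fibroblasts and 1.71 ± 0.02 in CAF. ZBP1 spanned -2.73 ± 0.32, -4.09 ± 0.18 and 1.01 ± 0.02, and CMPK2 -1.06 ± 0.14, -1.27 ± 0.07 and 2.10 ± 0.03. Strain and type cannot be told apart where CAF, which alone are FVB/NJ, are set against the other types, whereas MEF and wound fibroblasts share a strain.

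Several members lie beside each other, and neighbours did not always move together. RSAD2 (chr12:26442743-26456452) and CMPK2 (chr12:26469117-26479837) are separated by 12664 bases in GRCm38.p6. Both fell in mutant MEF (-3.49 and -2.78) and rose in CAF (2.09 and 2.10). IFIT2, IFIT3 and IFIT1 follow one another on chromosome 19 (chr19:34550550-34650009). In mutant MEF they changed by 0.66, -1.47 and -3.02. OASL2 and OASL1, 10897 bases apart on chromosome 5, moved in opposite directions in wound fibroblasts (-0.49 and 1.10) and CAF (-0.40 and 1.65). OAS2 and OAS3, 3211 bases apart on the same chromosome, changed by -2.86 and 1.42 in wound fibroblasts. PARP9, an ADP-ribosyltransferase, and its partner DTX3L overlap by 558 bases on chromosome 16, and since the strand setting of the counting is not given, reads in that stretch cannot be told apart. The same holds where STAT2 overlaps Apof, IFIT1 overlaps Ifit1bl1 and RTP4 overlaps Masp1. ISG15, USP18, IFI47, IFIH1, DHX58, GBP2, GBP3, TRIM25 and EIF2AK2 also overlap other annotated genes. PARP9 and DTX3L moved in opposite directions in CAF (0.19 ± 0.02 and -0.09 ± 0.02).

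Sensors differed among themselves. DDX58 (RIG-I) went from 52.3 ± 2.46 CPM in WT MEF to 24.7 ± 0.707 CPM in mutant and 16.3 ± 0.742 CPM in sgPrrx1 MEF (SD, n = 3), did not pass the test in wound fibroblasts (0.00 ± 0.03) and was -0.29 ± 0.02 in CAF. DHX58 (LGP2), which tunes DDX58 and IFIH1, was lower in both MEF comparisons (-0.71 and -1.65) and in wound fibroblasts (-0.86) and higher in CAF (0.42). EIF2AK2 (PKR), the kinase that halts translation on viral RNA, was lower in sgPrrx1 MEF (-0.58 ± 0.14) and CAF (-0.63 ± 0.02). IGTP, another immunity-related GTPase, was 6.14 ± 0.676 CPM in WT MEF, 4.90 ± 0.303 CPM in mutant and 1.41 ± 0.426 CPM in sgPrrx1 MEF, 18 ± 0.145 CPM and 8.34 ± 0.0886 CPM in WT and sgPrrx1 wound fibroblasts, and 152 ± 5.68 CPM and 92.0 ± 1.99 CPM in CAF (SD, n = 3). It was called lower in the 3 sgPrrx1 groups and not in the mutant. LGALS3BP was lower in the same 3 (-1.30 ± 0.09, -0.66 ± 0.02 and -1.03 ± 0.01), at 1026 ± 10.8 CPM in WT CAF and 511 ± 5.59 CPM in sgPrrx1 CAF. GBP3 and GBP7, guanylate-binding proteins, were lower in mutant MEF (-2.42 and -1.57), sgPrrx1 MEF (-1.66 and -1.57) and wound fibroblasts (-0.91 and -0.66). RTP4 was lower in sgPrrx1 MEF (-1.32 ± 0.12) and wound fibroblasts (-1.46 ± 0.05) and higher in CAF (0.43 ± 0.02), and IFI35 was called in wound fibroblasts (-0.78 ± 0.03) and CAF (0.17 ± 0.02) alone. XAF1, a pro-apoptotic protein, PARP9 and PARP14 were lower in sgPrrx1 MEF (-2.34, -0.90 and -1.69) and slightly higher in CAF (0.09, 0.19 and 0.30), and none of the 3 was called in mutant MEF.

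A further 34 interferon-stimulated genes outside the 39 were counted in the same way. In mutant MEF, 18 of the 31 tested were lower and 8 higher, in sgPrrx1 MEF 24 of 30 lower and 1 higher, in wound fibroblasts 25 of 33 lower and 5 higher, and in CAF 10 of 34 lower and 20 higher. The shares of all genes lower and higher were 30.5% and 29.4% in mutant MEF, 22.8% and 20.3% in sgPrrx1 MEF, 39.3% and 38.3% in wound fibroblasts and 41.9% and 41.2% in CAF, and they stand beside the smaller lists that follow as well. OAS1A, another synthetase, went up in mutant MEF (1.31 ± 0.14) and down in sgPrrx1 MEF (-4.80 ± 0.19), though its near-identical copies make the split of reads uncertain. In CAF, 12 of the 34 further genes rose and 3 fell by at least 2-fold, beside 11.5% and 12.8% of all genes. Their log2 fold changes ran from -5.46 to 5.51. Among those that rose, TRIM30A, a ubiquitin ligase, went from 46.1, 42.1 and 44.5 CPM to 376, 379 and 381 CPM. SP100, a nuclear body protein, rose from 12.9, 13.1 and 13.4 CPM to 134, 131 and 129.9 CPM, and GBP9 from 11, 10.4 and 10.8 CPM to 93.4, 94.6 and 93.9 CPM. All 3 were lower in both MEF comparisons and in wound fibroblasts, with SP100 at -2.71, -1.59 and -0.96. Of 7 inhibitors of the pathway, 1 of 7 tested were lower and 2 higher in mutant MEF, 2 of 7 lower and 4 higher in sgPrrx1 MEF, 2 of 7 lower and 3 higher in sgPrrx1 wound fibroblasts and 3 of 7 lower and 2 higher in sgPrrx1 CAF. Of 6 other IRF factors, 0 of 3 tested were lower and 2 higher in mutant MEF, 0 of 3 lower and 0 higher in sgPrrx1 MEF, 1 of 5 lower and 2 higher in sgPrrx1 wound fibroblasts and 0 of 4 lower and 4 higher in sgPrrx1 CAF. The inhibitor SOCS1, which blocks the receptor kinases, was lower in mutant MEF (-0.77) and CAF (-0.79) and higher in sgPrrx1 MEF (0.70), and SOCS3 lower in wound fibroblasts (-1.48) and higher in sgPrrx1 MEF (0.71) and CAF (1.34).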

How the data were processed

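Reads had been trimmed by the authors (Trimmomatic), mapped to mm10 (STAR) and assigned to genes (HTSeq), and the authors deposited whole-number counts in 1 table per fibroblast type, which were taken as raw. The study's methods mention batch correction of counts with ComBat-seq without stating whether it was applied to these tables. The strand setting is not given in the sources used here. Groups came from the labels of the 21 samples. Columns in the MEF and wound tables name genotype or guide and number only. The first was taken as MEF because it holds the knock-in group, and the last as wound fibroblasts by elimination. Counts were tested with edgeR 4.0.16 (quasi-likelihood F test, TMM scaling, filterByExpr, R 4.3.3) on the 6 cultures of each comparison, or the 18 WT and sgPrrx1 cultures for the interaction, with Benjamini-Hochberg adjustment over all genes tested. CPM were scaled by TMM over the 21 cultures. Total counts per culture limit the precision, and floors of 3 counts cover counting error only. Alternatives were DESeq2 1.42.0, other scalings and filters, halved counts, a replicate block, 1 model of the 9 MEF cultures, a 2-fold threshold and leaving out each culture. The procedure was tested on simulated data. Coordinates and promoters are from RefSeq GRCm38.p6.

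The members and lists were chosen with earlier results of these data known. Values by culture were given for Prrx1, the 4 transcription factors, the 3 largest called falls and rises per comparison with a mean of at least 1 CPM, members called in 1 direction in all 4 comparisons, and the 3 with the widest WT range. Other genes given with values were chosen after these had been seen.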

Additional observations from a re-analysis of the deposited data

Results flagged for a closer look

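The change with sgPrrx1 differed between MEF, wound fibroblasts and CAF for 38 of the 39 members by the interaction of fibroblast type and Prrx1 loss in edgeR, where 80.1% of all genes tested also differed. For 19 of the 38 members tested in all 3 types, calls had opposite directions in different types, near the 47.6% of all genes. One of them was IFI44, which was lower in sgPrrx1 MEF and wound fibroblasts and higher in sgPrrx1 CAF. Fibroblast type and count table cannot be told apart here, nor can strain where CAF are set against the other types, whereas MEF and wound fibroblasts are both C57BL/6.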

How the results depend on the processing

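No count of members and no named gene changed direction under any alternative that was run, and 265 of 273 alternative counts stayed within 1.5 times the reported one. The 8 others all came from asking for at least a 2-fold change, under which 0 members were higher in mutant MEF, 13 lower in wound fibroblasts, and 7 higher and 4 lower in CAF. Under the same rule 16 members were higher and 1 lower in WT wound fibroblasts against WT MEF, 1 was lower in WT CAF against WT MEF and 1 in WT CAF against WT wound fibroblasts. Of 116 alternative medians, 100 moved by less than the spread between cultures and 16 by more, all with their sign kept, the furthest in sgPrrx1 MEF (from -1.60 to -1.32 with at least 10 counts in every culture). Leaving out 1 culture at a time gave 21 to 23 lower and 2 to 4 higher members in mutant MEF, 31 to 34 lower in sgPrrx1 MEF, 31 lower in wound fibroblasts, and 20 to 21 higher and 16 to 17 lower in CAF.

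Of the named members, 33 alternative values lost the call and 1 gained it. The losses were of MX2, USP18 and IIGP1 in mutant MEF, IRF1 and ISG15 in sgPrrx1 MEF, IIGP1 in CAF and IFIT2 between the sgPrrx1 and mutant MEF, and the cause was not tested. IRF7 in wound fibroblasts gained a call without replicate 1 of WT wound fibroblasts (adjusted p = 0.0293, edgeR).

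The labels number the cultures of each group 1 to 3, but same-numbered cultures did not deviate together in every pair (correlations of -0.227, -0.0621 and -0.356 in mutant against WT MEF), so they were not treated as paired. With the replicate number as a block, 21 members were lower and 2 higher in mutant MEF, 34 and 0 in sgPrrx1 MEF, 31 and 3 in wound fibroblasts, 17 and 21 in CAF, and 18 and 10 in sgPrrx1 against mutant MEF. The depth of at least 69588655 counts per culture did not give MX1 enough counts for a test in sgPrrx1 MEF.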
